A study of Mus musculus with 2 samples.

Results

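Angpt2, Tek, Tie1 and Ptprb, the angiopoietin and Tie genes expressed by endothelium, were followed through liver endothelial cells of a Gimap5-mutant mouse and a heterozygous mouse. The 4 genes were chosen by name, for their place in 1 signalling pathway, out of 31053 genes in the deposited matrices, and all 4 were detected in both libraries. Living cells that stained for CD31 and not for CD45 were sorted from the liver of 1 adult C57BL/6 mouse homozygous for the sphinx allele of Gimap5 (sph/sph) and 1 adult C57BL/6 mouse carrying it on 1 chromosome (sph/+). CD31 marks endothelium and CD45 marks leukocytes. Gimap5 encodes a GTPase of lymphocytes and endothelium, and the mutation is carried in every cell of the animal rather than in endothelium alone. Both mice carry the allele, so neither library is a wild type. Each mouse gave 1 droplet library of the 10x Genomics 3' kit, v3. With 1 mouse per genotype there is no test, the library and the genotype cannot be told apart, and each interval given is a 95% interval for counting error only.

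Angpt2 encodes angiopoietin-2, a secreted ligand that endothelium stores and releases, and that in most settings opposes angiopoietin-1 at the receptor TIE2. Tek encodes TIE2, the receptor tyrosine kinase that keeps vessels quiescent when angiopoietin-1 engages it, and Tie1 encodes its orphan partner, which has no high-affinity ligand of its own among the angiopoietins and modulates TIE2. Ptprb encodes VE-PTP, an endothelial receptor phosphatase that removes phosphate from TIE2 and holds it in check. In active endothelium FOXO1 drives Angpt2 transcription, and TIE2 signalling through AKT keeps FOXO1 out of the nucleus.

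In GRCm38, the assembly that mm10 names, Angpt2 (ENSMUSG00000031465) lies on the minus strand of chromosome 8 from 18690263 to 18741562, inside the span of Mcph1 on the opposite strand. Levels are given in CPM, a gene's UMIs scaled to a common total of UMIs for the same cells. Mcph1 was at 8.14 CPM in the largest class of sph/sph cells and 7.40 CPM in that of sph/+ cells. Angpt2 was at 178 and 23.3 CPM there. In cycling cells Mcph1 was at 17.8 CPM in sph/sph and 30.8 CPM in sph/+, beside Angpt2 at 91.8 and 17.9 CPM. Whether counting used strand is not given in the sources used here. Ptprb (ENSMUSG00000020154) lies on the plus strand of chromosome 10 from 116275523 to 116389535. Both receptor genes lie on chromosome 4, Tek (ENSMUSG00000006386) on the plus strand from 94739289 to 94874976 and Tie1 (ENSMUSG00000033191) on the minus strand from 118471191 to 118490061. The 250 bases before RefSeq's start of each receptor gene, which for Tie1 lies inside the span given above, are printed below because Tek and Tie1, neighbours in function, differed between the libraries to unlike degrees. They come from RefSeq on GRCm38.p6, at chr4:94739039-94739288 on the plus strand for Tek and chr4:118489850-118490099 on the minus strand for Tie1, each written 5′ to 3′. Capitals mark a match, on either strand, to one of 3 short motifs of endothelial transcription factor families, for which these letters were searched: AGGAAG for ETS factors, GATAA for GATA factors and ACAAAG for SOX factors.
Tek: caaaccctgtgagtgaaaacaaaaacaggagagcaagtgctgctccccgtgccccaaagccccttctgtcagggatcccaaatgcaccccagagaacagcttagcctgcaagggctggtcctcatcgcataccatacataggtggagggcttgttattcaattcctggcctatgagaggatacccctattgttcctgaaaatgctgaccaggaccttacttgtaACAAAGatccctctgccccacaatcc
Tie1: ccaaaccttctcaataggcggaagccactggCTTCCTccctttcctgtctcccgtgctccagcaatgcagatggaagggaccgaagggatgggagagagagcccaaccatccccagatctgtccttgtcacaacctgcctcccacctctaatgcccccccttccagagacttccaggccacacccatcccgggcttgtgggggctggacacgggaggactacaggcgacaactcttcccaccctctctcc
The Tek window held 1 match, to the SOX letters, starting 26 bases before the gene, and the Tie1 window held 1, to the ETS letters on the reverse strand, starting 219 bases before the gene. These letters are common. Among 27025 RefSeq promoter windows of the same length, 16.5% held the SOX letters, 29.2% the ETS letters and 23.0% the GATA letters, which neither receptor window held.

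Depth was similar, with 68983780 UMIs (unique molecular identifiers, each a counted RNA molecule) over 16386 barcodes in sph/sph and 64460283 UMIs over 13136 barcodes in sph/+. After filtering, removal of likely doublets and removal of cells led by markers of other cell types, 10725 endothelial-like cells with a median of 3913 UMIs remained in sph/sph and 10019 with a median of 4345 UMIs in sph/+. The targets of the sort were then read in these endothelial-like cells. Pecam1, which encodes CD31, stood at 1044 CPM in sph/sph and 722.5 CPM in sph/+. Ptprc, which encodes CD45, had 3 UMIs in these cells of each library. Kupffer cell or macrophage-marked cells, 19 in sph/sph and 138 in sph/+, had been removed before this count, so it does not check the sort against CD45. The libraries differed in the kind of endothelium. Of endothelial-like cells, 7.16% were like liver sinusoidal endothelial cells (LSEC-like) in sph/sph and 97.8% in sph/+, while 70.4% in sph/sph and 0.21% in sph/+ were like continuous vascular endothelium. Lymphatic-like cells made up 10.8% in sph/sph and 0.0799% in sph/+. Cycling cells made up 9.24% in sph/sph and 1.20% in sph/+, and central-vein-like cells 2.28% in sph/sph and 0.709% in sph/+. Markers of other cell types also differed over the endothelial-like cells that were kept. The stellate, fibroblast and pericyte list (12 genes) summed to 396 CPM in sph/sph and 54.2 CPM in sph/+. Cells led by that list had been removed, 5 from sph/sph and 537 from sph/+. The lymphatic-like sph/sph cells, which were kept, held 19300 of the 20389 sph/sph UMIs of the list. The erythroid list (6 genes) summed to 133 CPM in sph/sph and 0.26 CPM in sph/+, where 2 of its genes were at 0. Erythroid-marked cells, 103 in sph/sph and 0 in sph/+, had been removed. The hepatocyte list (12 genes) summed to 179 CPM in sph/sph and 127 CPM in sph/+, and the mesothelial list (5 genes) to 180 CPM in sph/sph, where 2 of its genes were at 0, and 6.86 CPM in sph/+, where 1 was. Wt1, on the mesothelial list, was among the 10 top genes of the largest sph/sph cluster. Continuous vascular-like sph/sph cells held 5756 of the 9256 sph/sph UMIs of that list. The share of Wt1 in them was not taken. The part of the markers of other cell types in the results was not tested. The 4 genes were kept out of the clustering and of every marker list.

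Over all endothelial-like cells, the ligand stood higher in sph/sph, TIE2 and its phosphatase stood lower, and the partner receptor hardly differed. Angpt2 was at 204 CPM (200 to 208, 10503 UMIs) in sph/sph and 23.0 CPM (21.6 to 24.4, 1062 UMIs) in sph/+, 8.88-fold higher in sph/sph (8.34 to 9.47). Tek was at 102 CPM (99.2 to 104.8, 5248 UMIs) in sph/sph and 468.5 CPM (462 to 475, 21655 UMIs) in sph/+, 4.6-fold lower in sph/sph (4.46 to 4.74). The intervals of the libraries lay far apart for both genes. Ptprb was at 545.5 CPM (539 to 552, 28080 UMIs) in sph/sph and 4810 CPM (4790 to 4830, 222331 UMIs) in sph/+, 8.82-fold lower in sph/sph (8.71 to 8.93). Tie1 was at 325.5 CPM (320.5 to 330.4, 16752 UMIs) in sph/sph and 350 CPM (345 to 356, 16190 UMIs) in sph/+, a ratio of 0.929 (0.909 to 0.950). Thus 1 of the 4 genes was at least 2-fold higher in sph/sph, where 11.0% of all 7466 genes measured at 20 CPM or more in either library were, and 2 of the 4 were at least 2-fold lower, where 10.6% were.

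As log2 ratios of sph/sph to sph/+ (with 1 CPM added on each side), the 7466 genes give a distribution in which Angpt2 at 3.0964 stood at percentile 96.4, with 271 genes above it. Ptprb at -3.14 stood at percentile 1.4, with 102 genes below it, and Tek at -2.19 at percentile 2.9. Tie1 at -0.11 lay near the middle, at percentile 48.0. In UMIs of ligand against receptor, the sph/sph library held 200 Angpt2 UMIs per 100 Tek UMIs (194 to 207), and the sph/+ library held 4.90 (4.61 to 5.22). This figure counts molecules of 2 genes in the same cells and is not a ratio of proteins.

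The share of cells with at least 1 UMI followed the same order once each cell had been thinned to 2000 UMIs, which 9824 of the 10725 sph/sph cells and 9602 of the 10019 sph/+ cells could supply. An Angpt2 UMI was present in 20.8% of sph/sph cells (19.98 to 21.59) and 4.44% of sph/+ cells (4.03 to 4.87). A Tek UMI was present in 18.1% of sph/sph cells (17.4 to 18.9) and 59.7% of sph/+ cells (58.7 to 60.7). Nearly every sph/+ cell carried the phosphatase. Ptprb was seen in 57.6% of sph/sph cells (56.6 to 58.6) and 99.8% of sph/+ cells, while Tie1 was seen in 47.7% of sph/sph cells (46.8 to 48.7) and 51.0% of sph/+ cells (49.97 to 51.98). Without thinning, the sph/sph shares were 30.5% for Angpt2, 33.1% for Tek, 71.1% for Tie1 and 77.03% for Ptprb, and the sph/+ shares were 9.13%, 82.97%, 76.4% and 99.9% in that order of genes.

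Free RNA in droplets can give UMIs to cells that do not express a gene, so the same shares were taken in cells that should lack these genes. A cluster of 119 hepatocyte-marked sph/sph cells had 2 of 13 pan-endothelial markers detected and a median of 1790 UMIs. At 2000 UMIs, 46 of these cells remained, of which 6.52% had an Angpt2 UMI (1.37 to 17.9), 4.35% a Tek UMI (0.531 to 14.8), 15.2% a Tie1 UMI (6.34 to 28.9) and 26.1% a Ptprb UMI (14.3 to 41.1). The sph/sph shares over endothelial-like cells were above these values for all 4 genes. The Angpt2 share rests on 3 of the 46 cells, and before thinning the 17 Angpt2 UMIs of this cluster lay in 4 of its 119 cells, so it does not set a background level. In sph/+ cholangiocyte-marked cells, in which 12 of 13 pan-endothelial markers were also detected, 0.578% of 173 cells had an Angpt2 UMI (0.0146 to 3.18), below the 4.44% of sph/+ endothelial-like cells by more than the counting intervals. Of the same 173 cells, 20.8% had a Tek UMI, 16.2% a Tie1 UMI and 58.4% a Ptprb UMI. Other hepatocyte- and erythroid-marked clusters had 12 of 13 pan-endothelial markers detected, so whether they lack these genes is not known. The sph/sph erythroid-marked cells had shares of 19.4% (12.3 to 28.4) for Angpt2, 4.85% for Tek, 38.8% for Tie1 and 30.1% for Ptprb. In that order, a sph/sph hepatocyte-marked cluster of 295 cells had 17.6%, 16.6%, 51.9% and 65.4%. A sph/+ one of 99 cells had 3.03%, 59.6%, 40.4% and 100%. How much of any share came from free RNA was not tested.

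**Figure D1:**
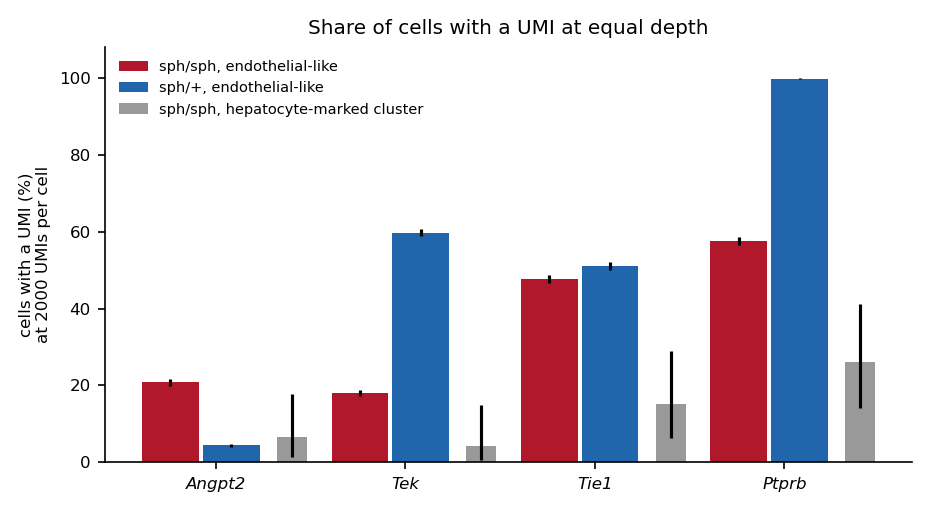
Percent of cells with at least 1 UMI of each gene after thinning to 2000 UMIs, for endothelial-like cells of sph/sph (red) and sph/+ (blue) and for a hepatocyte-marked cluster of 46 sph/sph cells (grey), with 95% exact binomial intervals for counting error. Angpt2 stands at 20.8% in sph/sph and 4.44% in sph/+, Tek and Ptprb show the opposite order, and Tie1 is nearly level at 47.7% in sph/sph and 51.0% in sph/+.

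Angpt2 was concentrated in few cells. In sph/sph the 10% of endothelial-like cells with the most Angpt2 UMIs held 72.3% of them, and 1 cell held 42, whereas the top 10% held 51.5% of Tek UMIs, 33.2% of Tie1 UMIs and 37.9% of Ptprb UMIs. In sph/+ no cell held more than 5 Angpt2 UMIs.

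The endothelial subtypes were then compared within each library, in 11 sph/sph clusters and 10 sph/+ clusters with at least 25 cells, each called here by its leading genes. Angpt2 varied most among the sph/sph clusters, by 88.3-fold between the highest and the lowest. It was highest in the lymphatic-like cluster led by Fgl2 and Mmrn1, at 395 CPM (383 to 406, 1160 cells). Next came a continuous vascular-like cluster led by AA467197, Cxcl10 and Angptl4, at 351.5 CPM (334.5 to 369.1, 919 cells), and the largest cluster, led by Apln and Lamb1, at 244 CPM (234.5 to 253.1, 3152 cells). Apln, the ligand of the apelin receptor, and Angptl4 are on a list of 8 angiogenic or tip markers. Of that list, 4 were detected in the AA467197/Cxcl10 cluster, 3 in the Apln/Lamb1 cluster and 1 in the lymphatic-like cluster. The Igfbp3/Cxcl12 and Hist1h2ae/Top2a clusters, lower in Angpt2, also had 3 detected. The 3 clusters highest in Angpt2 each stood apart from their neighbours in the order by more than the counting interval.

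A middle group lay between 66.55 and 102.2 CPM, with neighbours whose intervals overlapped. It held the cycling clusters at 102.2 CPM (Hist1h2ae and Top2a, 617 cells) and 66.55 CPM (Cenpf and Cenpe, 370 cells), and the Igfbp3/Cxcl12 cluster, in which 7 of 9 arterial markers were detected, at 84.5 CPM (794 cells). It also held the cluster led by Rgcc and Lpl at 77.2 CPM (2415 cells) and 1 LSEC-like cluster at 69.6 CPM (255 cells). The other LSEC-like sph/sph cluster, of 511 cells with a high median of 10.4% of UMIs from mitochondrially encoded genes, was at 28.7 CPM (21.8 to 37.2). Angpt2 was scarce in the remaining 2 sph/sph clusters. The cluster led by Vwf, the von Willebrand factor gene, and Fbln5 held 11 UMIs at 6.98 CPM (3.48 to 12.5, 267 cells). Like the Igfbp3/Cxcl12 cluster, it had 7 of 9 arterial markers detected. The central-vein-like cluster led by Inhba and Rspo3 held 7 UMIs at 4.47 CPM (1.80 to 9.21, 243 cells).

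Shares of cells at 2000 UMIs gave the same top 3. An Angpt2 UMI was present in 40.6% of cells of the AA467197/Cxcl10 cluster, 39.9% of the lymphatic-like cluster and 25.1% of the Apln/Lamb1 cluster. It was present in 5.345% (3.45 to 7.85) of cells of the Tubb3/Sprr2b LSEC-like cluster and 7.5% (4.51 to 11.6) of the Sprr2b/Pi16 LSEC-like cluster. In the Vwf/Fbln5 and Inhba/Rspo3 clusters the shares were 1.57% (0.429 to 3.97) and 1.28% (0.265 to 3.70). Both were below the 7.5% by more than the counting intervals, but their intervals overlapped that of the 5.345%.

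In sph/+, where the Angpt2 level was low throughout, it still differed among LSEC-like clusters. It was highest in the cluster led by Chst2 and Aass at 39.0 CPM (34.9 to 43.6, 2012 cells) and the cluster led by the interferon genes Ifit1 and Ifit3b at 33.6 CPM (28.2 to 39.8, 768 cells), whose intervals overlapped. The Gm10600/Gatm cluster at 24.4 CPM and the Msr1/Ntn4 cluster at 22.6 CPM followed. Both the Msr1/Ntn4 cluster and the cluster led by Nrg1 and Adgrg6 had 6 of 6 periportal markers detected. The Gm10600/Gatm, Chst2/Aass and Ifit1/Ifit3b clusters each had 5 of 6. The Wnt2/Rspo3 cluster, in which 6 of 7 central-vein or pericentral markers were detected, was at 7.47 CPM (5.78 to 9.50, 2040 cells). The Nrg1/Adgrg6 cluster was at 5.27 CPM (2.41 to 10.0, 325 cells). Counts were too low to order the other sph/+ clusters among these, with 9 Angpt2 UMIs in cycling cells, 1 in the Mcm5/Slfn9 cluster and 2 and 0 in the central-vein-like clusters. The count of 0 came from 33 cells and allows up to 22.3 CPM.

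**Figure D2:**
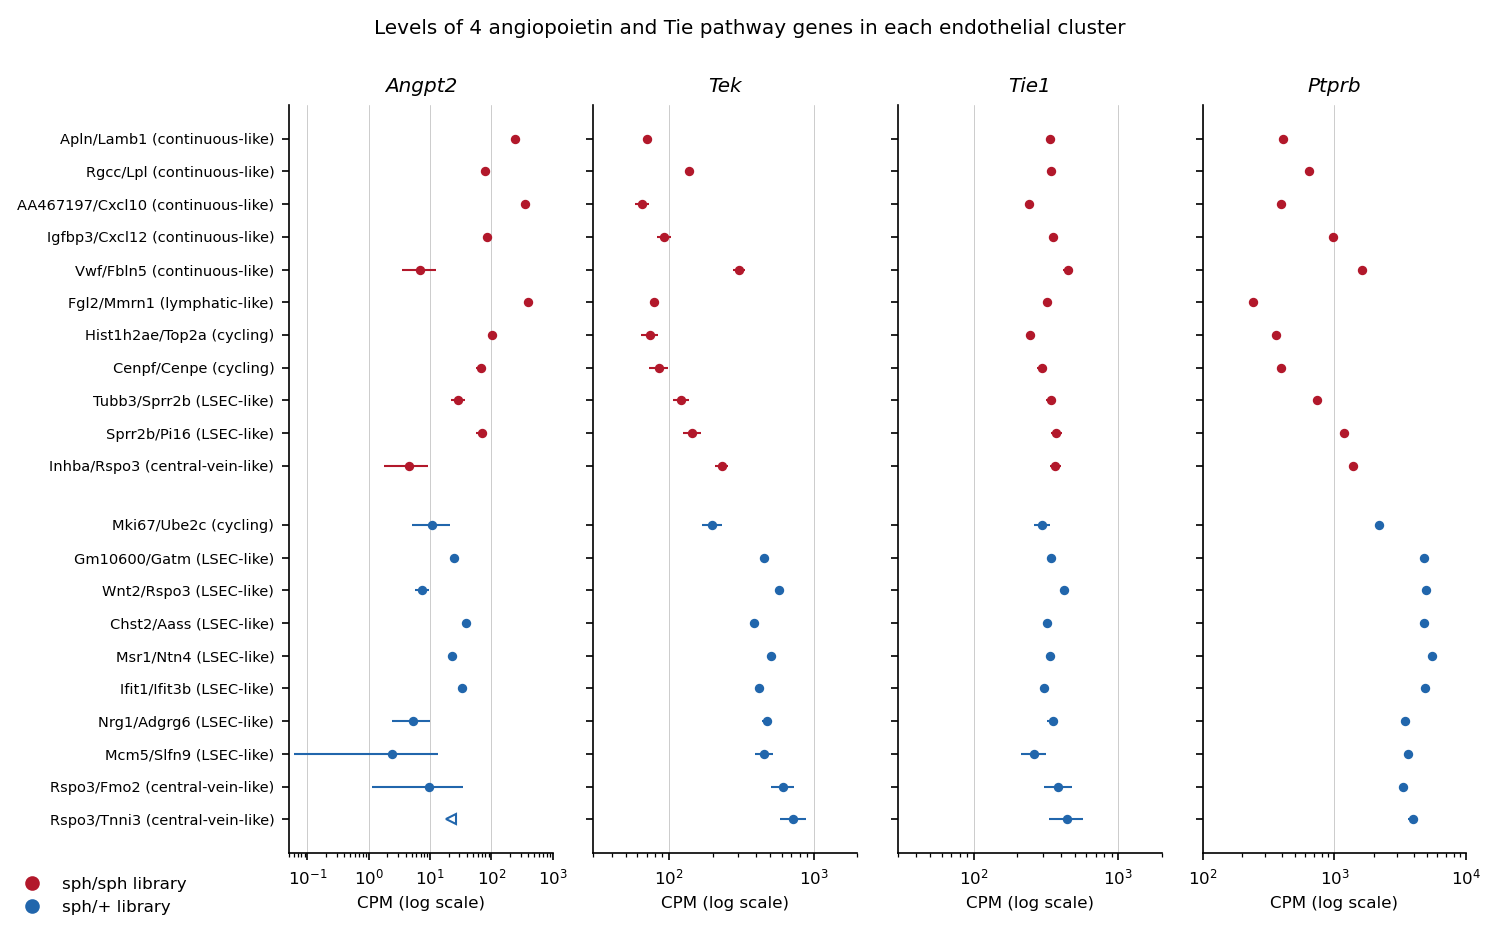
Level of each gene in CPM (log scale, horizontal axis) in every endothelial cluster with at least 25 cells of a library, sph/sph clusters (red) above sph/+ clusters (blue), named by 2 leading genes and class. Points are levels with 95% exact Poisson intervals, and the open arrow marks the 22.3 CPM that 3 UMIs would give in the cluster with 0 Angpt2 UMIs. Ptprb is lower in each of the 11 sph/sph clusters than in any of the 10 sph/+ clusters, while Tie1 spans 242 to 450 CPM in sph/sph and 260 to 439 CPM in sph/+.

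Tek ran almost opposite to Angpt2 among the sph/sph clusters. Its highest levels were in the Vwf/Fbln5 cluster at 305 CPM (278.5 to 333.7) and the Inhba/Rspo3 central-vein-like cluster at 232 CPM (209 to 257), where Angpt2 was scarcest. The lowest were in the AA467197/Cxcl10 cluster at 65.0 CPM (57.8 to 72.8) and the Apln/Lamb1 cluster at 70.5 CPM (65.6 to 75.7). Between them lay the LSEC-like clusters at 144 and 121 CPM, the Rgcc/Lpl cluster at 138 CPM, the Igfbp3/Cxcl12 cluster at 92.6 CPM and the lymphatic-like cluster at 79.1 CPM. The 6 lowest levels formed a run in which each interval overlapped the next.

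In sph/+, Tek was high in every cluster but the cycling one. Central-vein-like cells led, at 722 CPM (585.5 to 880.9) and 611 CPM (510 to 726) in clusters of 33 cells each, and the pericentral Wnt2/Rspo3 cluster followed at 578 CPM (562 to 594). Their intervals overlapped in order. The Msr1/Ntn4 cluster was at 508 CPM (493 to 523), the Ifit1/Ifit3b cluster at 421 CPM and the Chst2/Aass cluster at 384 CPM (370 to 397). The cycling cluster led by Mki67 was lowest at 199 CPM (170 to 232, 94 cells), below the Vwf/Fbln5 cluster of sph/sph and with an interval that overlapped that of the Inhba/Rspo3 cluster. The other 9 sph/+ clusters were all above the highest sph/sph cluster.

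Ptprb, the phosphatase, was lower in every sph/sph cluster than in any sph/+ cluster. Its sph/sph clusters ran from 239 CPM (231 to 248) in the lymphatic-like cluster to 1603 CPM (1541 to 1666) in the Vwf/Fbln5 cluster. Its sph/+ clusters ran from 2168 CPM (2068 to 2271) in the cycling cluster to 5450 CPM (5400 to 5499) in the Msr1/Ntn4 cluster. Within sph/sph the order below the Vwf/Fbln5 cluster was the central-vein-like cluster at 1384 CPM, the LSEC-like clusters at 1180 and 741 CPM with the Igfbp3/Cxcl12 cluster at 971 CPM between them, the Rgcc/Lpl cluster at 646 CPM and the Apln/Lamb1 cluster at 410 CPM. All these neighbours were apart by more than the counting intervals. Within sph/+ the pericentral, interferon gene-led, Gm10600/Gatm and Chst2/Aass clusters lay close together between 4772 and 4910 CPM, and the Nrg1/Adgrg6 cluster was lower at 3448 CPM (3360 to 3537).

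Tie1 was the most even of the 4. Its highest sph/sph cluster, Vwf/Fbln5 at 450 CPM (418 to 485), was 1.86-fold above its lowest, AA467197/Cxcl10 at 242 CPM (228 to 257), and 8 of the 10 neighbouring pairs in the order had overlapping intervals. In sph/+ the highest level, 439 CPM (334.3 to 566.5) in the Rspo3/Tnni3 central-vein-like cluster, was 1.69-fold above the lowest, 260 CPM (213 to 314) in the Mcm5/Slfn9 cluster, and all 9 neighbouring pairs overlapped. The well-populated pericentral Wnt2/Rspo3 cluster, at 421 CPM (408 to 435), was above the Msr1/Ntn4 cluster at 338 CPM (325 to 350). It was also above the Nrg1/Adgrg6 cluster at 351 CPM (323 to 380). The median over clusters was 340 CPM in sph/sph and 341.5 CPM in sph/+.

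The balance of ligand and receptor RNA separated the sph/sph subtypes further. There were 541 Angpt2 UMIs per 100 Tek UMIs (478 to 614) in the AA467197/Cxcl10 cluster, 499 (465.0 to 536.5) in the lymphatic-like cluster and 345.5 (318.8 to 374.8) in the Apln/Lamb1 cluster. In the Vwf/Fbln5 and Inhba/Rspo3 clusters of the same library there were 2.29 (1.13 to 4.13) and 1.93 (0.770 to 4.01). Both values lay within the range of the sph/+ LSEC-like clusters, which ran from 0.532 (0.0134 to 3.0) in the Mcm5/Slfn9 cluster and 1.12 (0.509 to 2.13) in the Nrg1/Adgrg6 cluster to 10.2 (9.04 to 11.4) in the Chst2/Aass cluster. Across the 11 sph/sph clusters with at least 50 cells, Pearson's r between log2(CPM + 10) of Angpt2 and Tek was -0.88, and across 8 such sph/+ clusters it was -0.07. Between Tek and Ptprb r was 0.86 in sph/sph and 0.81 in sph/+, and between Angpt2 and Ptprb it was -0.83 in sph/sph and 0.51 in sph/+. The 8 sph/+ clusters include the cycling cluster, lowest in both Tek (199 CPM) and Ptprb (2168 CPM), and r without it was not taken. The central-vein-like sph/+ clusters, highest in Tek at 722 and 611 CPM, had under 50 cells and were left out. Their Ptprb was at 3908 and 3325 CPM. The sph/+ r values of Angpt2 rest in part on 9 Angpt2 UMIs in the cycling cluster, 9 in the Nrg1/Adgrg6 cluster and 1 in the Mcm5/Slfn9 cluster. Each r describes clusters that share 1 animal, 1 library and its depth.

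**Figure D3:**
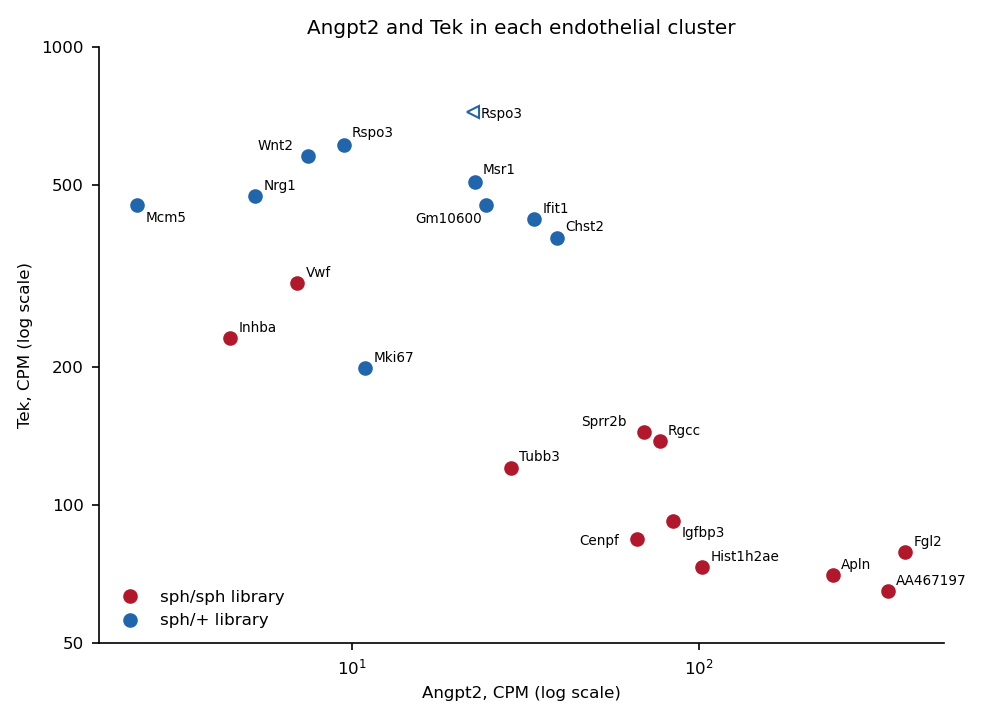
Angpt2 (horizontal) against Tek (vertical) in CPM, both on log scales, for each endothelial cluster of sph/sph (red) and sph/+ (blue), labelled by its first leading gene. The open arrow is the sph/+ cluster with 0 Angpt2 UMIs, placed at the 22.3 CPM that 3 UMIs would give. The Fgl2, AA467197 and Apln clusters of sph/sph lie at 244 to 395 CPM of Angpt2 and 65.0 to 79.1 CPM of Tek, and the Vwf and Inhba clusters of the same library lie at 4.47 to 6.98 CPM of Angpt2 and 232 to 305 CPM of Tek.

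The same pair was compared cell by cell at 2000 UMIs. In sph/sph, 11.7% of cells with an Angpt2 UMI also had a Tek UMI (10.3 to 13.1), against 19.8% of cells without an Angpt2 UMI (19.0 to 20.7). In sph/+ 58.7% of Angpt2-positive cells (53.85 to 63.4) and 59.8% of Angpt2-negative cells (58.8 to 60.8) had a Tek UMI. Since Angpt2 and Tek differ between sph/sph clusters, the shares were also taken within them. In the Apln/Lamb1 cluster 8.56% of Angpt2-positive cells (6.55 to 10.95) and 14.1% of Angpt2-negative cells (12.6 to 15.7) had a Tek UMI. In the AA467197/Cxcl10 cluster the shares were 10.2% (7.28 to 13.8) in Angpt2-positive and 13.75% (10.93 to 16.97) in Angpt2-negative cells, and in the Rgcc/Lpl cluster 20.9% (16.3 to 26.2) and 25.2% (23.3 to 27.2) in the same order, with intervals that overlapped.

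Since the libraries differed in subtype, each gene was compared within the 3 classes that held at least 25 cells of both. Among LSEC-like cells (768 sph/sph, 9799 sph/+), Tek was at 130 CPM (118 to 143) in sph/sph and 473 CPM (467 to 480) in sph/+, 3.63-fold lower (3.31 to 4.0). Ptprb was at 924 CPM (892 to 957) in sph/sph and 4885 CPM (4865 to 4906) in sph/+, 5.285-fold lower (5.10 to 5.48). The class was not alike in the libraries: its sph/sph clusters had 9 and 10 of 12 LSEC markers and 7 and 9 of 15 continuous vascular markers detected, its largest sph/+ cluster had 12 and 5, and Vwf stood at 207 CPM in sph/sph and 41.9 CPM in sph/+. Angpt2 was at 45.1 CPM (38.2 to 52.8, 153 UMIs) in sph/sph and 23.3 CPM (21.9 to 24.8) in sph/+, a ratio of 1.94 (1.62 to 2.30), and Tie1 was at 355.5 CPM in sph/sph and 351 CPM in sph/+, a ratio of 1.01 (0.955 to 1.075). At 2000 UMIs an Angpt2 UMI was present in 6.08% of these sph/sph cells (4.42 to 8.13) and 4.46% of these sph/+ cells (4.05 to 4.90), with intervals that overlapped. On the log2(CPM + 1) scale 0 of the 4 genes were 2-fold higher, where 11.1% of 7416 measured genes were, and 2 were 2-fold lower, where 10.9% were.

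Central-vein-like cells were few, with 245 in sph/sph and 71 in sph/+. Tek was at 231 CPM (208 to 256) in sph/sph and 637 CPM (558 to 723) in sph/+, 2.755-fold lower (2.33 to 3.26), and Ptprb at 1386 CPM (1329 to 1446) in sph/sph and 3392 CPM (3206 to 3585) in sph/+, 2.45-fold lower (2.28 to 2.62). Angpt2 had 7 UMIs in sph/sph and 2 in sph/+, so that its ratio of 0.822 (0.157 to 8.11) shows no direction at this depth. Tie1 was at 368.5 CPM in sph/sph and 406 CPM in sph/+, a ratio of 0.907 (0.757 to 1.09). Again 0 of 4 genes were 2-fold higher (12.1% of 7440 measured genes) and 2 were 2-fold lower (12.4%).

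Among cycling cells (991 sph/sph, 120 sph/+), Angpt2 was at 91.8 CPM (83.75 to 100.4) in sph/sph and 17.9 CPM (10.6 to 28.3, 18 UMIs) in sph/+, 5.13-fold higher (3.21 to 8.73). Tek was at 77.4 CPM in sph/sph and 219 CPM in sph/+, 2.82-fold lower (2.385 to 3.335), and Ptprb at 374 CPM in sph/sph and 2334 CPM in sph/+, 6.245-fold lower (5.88 to 6.63). Tie1 was at 266 CPM in sph/sph and 315 CPM in sph/+, a ratio of 0.845 (0.747 to 0.9575). Here 1 of 4 genes was 2-fold higher (10.1% of 7672 measured genes) and 2 were 2-fold lower (15%). In all 3 classes different clusters held most of the cells of each library (LSEC-like cells of sph/sph lay in the Tubb3/Sprr2b and Sprr2b/Pi16 clusters). The cycling sph/sph clusters had 13 of 15 continuous vascular markers detected, and the main cycling sph/+ cluster had 12 of 12 LSEC markers, so this class was not of 1 endothelial kind.

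**Figure D4:**
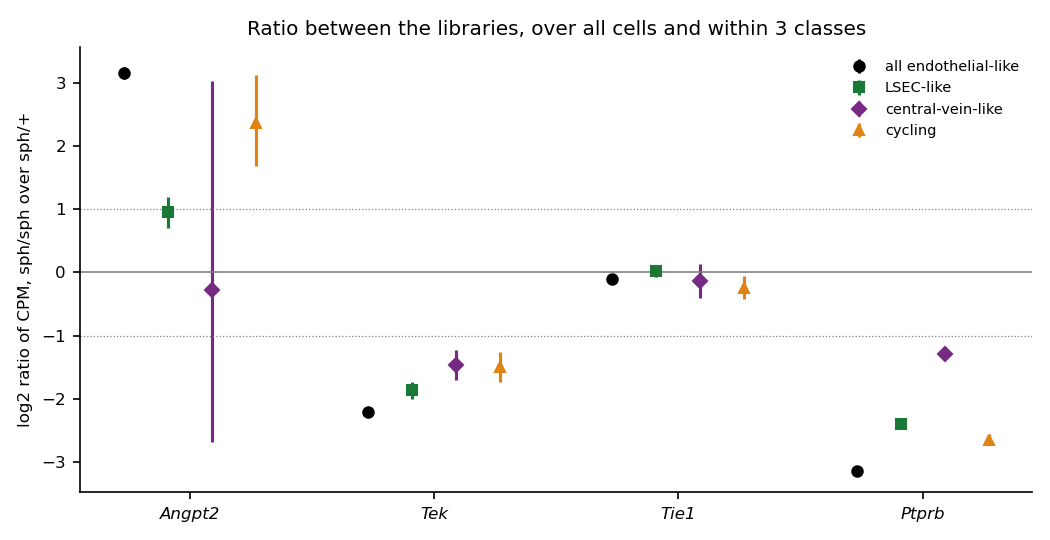
Log2 ratio of CPM, sph/sph over sph/+, for each gene over all endothelial-like cells and within LSEC-like, central-vein-like and cycling cells, with 95% counting intervals. The solid line is equal levels and dotted lines mark 2-fold. Tek and Ptprb lie below the lower dotted line in every group shown, Tie1 lies near 0 in each, and Angpt2 ranges from 8.88-fold higher over all cells to an interval across both directions in central-vein-like cells.

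The lymphatic-like sph/sph cluster held a large part of Angpt2. It made up 10.8% of sph/sph endothelial-like cells and held 43.6% of their Angpt2 UMIs, against 17.5% of Tek, 22.25% of Tie1 and 9.9% of Ptprb UMIs. Without this cluster the log2 ratio was 2.64 for Angpt2, -2.10 for Tek and -2.92 for Ptprb. The cluster carried markers of more than 1 cell type. It had 6 of 7 lymphatic and 7 of 12 LSEC markers detected, a median of 9750 UMIs, and stellate, fibroblast or pericyte markers at a summed 1662 CPM over 12 genes, 1 of them at 0, of which Reln is also a lymphatic marker. In the other sph/sph classes that sum was 20.5 to 151 CPM, with 1 to 5 of the 12 at 0, and in sph/+ classes 25.8 to 141 CPM, with 0 to 5 at 0. Erythroid markers summed to 451 CPM there, with 1 of 6 at 0, against 11.5 to 74.95 CPM in the other sph/sph classes. The part of these markers in the Angpt2 level was not tested. Outside it, the continuous vascular-like sph/sph class stood at 178 CPM of Angpt2 (173.5 to 183.1), with the stellate list at a summed 20.5 CPM, the mesothelial list at 194 CPM with 3 of 5 genes at 0, and the hepatocyte list at 206 CPM.

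The other ligands of the pathway were scarce in sorted endothelium. Angpt1, the agonist of TIE2, had 117 UMIs at 2.27 CPM (1.88 to 2.72) in sph/sph and 9 UMIs at 0.195 CPM (0.089 to 0.370) in sph/+. Of the sph/sph molecules 111 lay in the lymphatic-like cluster, at 9.56 CPM (7.87 to 11.5). Angpt4, a further angiopoietin, and Svep1, a matrix protein reported to bind TIE1, had 0 UMIs in both libraries, which allows up to 3 UMIs in each. Angptl1 had 1 UMI in sph/sph and 2 in sph/+, and Angptl2 had 89 in sph/sph and 14 in sph/+. Angptl4, an angiopoietin-like protein that does not signal through TIE2 and inhibits lipoprotein lipase, was at 143 CPM (140 to 147) in sph/sph and 0.5625 CPM (0.367 to 0.824) in sph/+, and was the 1 gene of 6 on this list that reached 20 CPM.

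Genes that act with the receptors were listed by role, and for each list the genes measured at 20 CPM in either library are counted. Of 24 TIE2 adaptors and downstream kinases 18 were measured. By the 2-fold rule 2 were higher in sph/sph and 1 was lower, against 11.0% higher and 10.6% lower over all measured genes, and their median log2 ratio was -0.23, beside -0.07 over all measured genes. Pik3cb, a catalytic subunit of PI3 kinase, was at 26.9 CPM in sph/sph and 5.47 CPM in sph/+, and the adaptor Shc1 at 63.5 CPM in sph/sph and 27.2 CPM in sph/+. Dok1, a docking protein, was at 23.8 CPM in sph/sph and 50.75 CPM in sph/+. Pik3ca, another catalytic subunit, had a ratio of 0.564. Dok2, the docking protein first described at TIE2, had 6 UMIs in sph/sph and 19 in sph/+.

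Of 15 FOXO factors and genes reported as FOXO targets 9 were measured. Of these 4 were 2-fold lower in sph/sph and 1 was 2-fold higher, beside 10.6% lower and 11.0% higher over all measured genes, with a median log2 ratio of -0.86. Pdk4, a brake on pyruvate oxidation, was at 1.65 CPM in sph/sph and 26.1 CPM in sph/+, and Sesn1, a stress-induced regulator of mTORC1, at 14.9 CPM in sph/sph and 49.5 CPM in sph/+. The ubiquitin ligase gene Fbxo32 was at 7.13 CPM in sph/sph and 25.3 CPM in sph/+, and Klhl24 at 75.4 CPM in sph/sph and 174.5 CPM in sph/+. Pik3ip1, an inhibitor of PI3 kinase, was the gene that was higher, at 26.2 CPM in sph/sph and 1.88 CPM in sph/+. Foxo1 itself, named after its value was seen and outside the 5 largest ratios of the list, was at 101 CPM in sph/sph and 144 CPM in sph/+, a log2 ratio of -0.51.

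The listed partners of the phosphatase lay on both sides of equal levels. All 4 listed partners and reported substrates of VE-PTP were measured. Of these 1 was 2-fold higher and 1 was 2-fold lower, beside 11.0% higher and 10.6% lower over all measured genes. The median log2 ratio was -0.04. Cdh5, the VE-cadherin of endothelial junctions, was at 1221 CPM in sph/sph and 870 CPM in sph/+, and Jup, the junctional plakoglobin, at 186 CPM in sph/sph and 58.7 CPM in sph/+. Kdr, which encodes VEGF receptor 2, was at 1387 CPM in sph/sph and 2896 CPM in sph/+, and the exchange factor Fgd5 at 184 CPM in sph/sph and 275 CPM in sph/+. Among 11 other receptor-type tyrosine phosphatases 5 were measured, with a median log2 ratio of 0.54. Of these 5, 2 were 2-fold higher and 0 lower, beside 11.0% higher and 10.6% lower over all measured genes. The 2 were Ptpre, at 114.5 CPM in sph/sph and 39.4 CPM in sph/+, and Ptprm, a phosphatase of cell contacts, at 142 CPM in sph/sph and 59.3 CPM in sph/+. Ptprk, Ptpra and Ptprg had ratios of 1.465, 1.19 and 1.14.

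Proteases and integrins that act on the receptors or ligands were measured in 8 of 8 cases. Their median log2 ratio was 0.63, and 3 of them were 2-fold higher and 0 lower, beside 11.0% and 10.6% over all measured genes. Itgb3 was at 97.8 CPM in sph/sph and 16.8 CPM in sph/+, and the metalloprotease Adam15 at 310 CPM in sph/sph and 78.85 CPM in sph/+. Itgav, which pairs with Itgb3, was at 66.2 CPM in sph/sph and 21.65 CPM in sph/+. Itga5 and Itgb1, the fibronectin receptor that angiopoietin-2 can also engage, had ratios of 1.76 and 1.36. Tip cell genes, among which Angpt2 is often counted though it was left out of this list, had the highest median of the lists with more than 1 measured gene. All 16 were measured and 14 of them were 2-fold higher in sph/sph, 0 were lower, and the median log2 ratio was 3.49. The largest were Apln at 365 CPM in sph/sph and 0.584 CPM in sph/+, the laminin chain Lamb1 at 307 CPM in sph/sph and 0.476 CPM in sph/+, and the nidogen Nid2 at 139 CPM in sph/sph and 3.59 CPM in sph/+. Igfbp3 and the chemokine receptor Cxcr4 followed, at 4.55 and 4.34 on the log2 scale. The 2 within 2-fold, named after their values were seen, were the Notch ligand Dll4 at -0.16 and Nid1 at 0.27. Apln, Lamb1 and Igfbp3 also lead sph/sph clusters, so the count of this list restates the subtypes in part. Over the 7 lists together, 24 of 61 measured genes were 2-fold higher in sph/sph and 6 were 2-fold lower, beside 820 higher and 794 lower of all 7466.

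**Figure D5:**
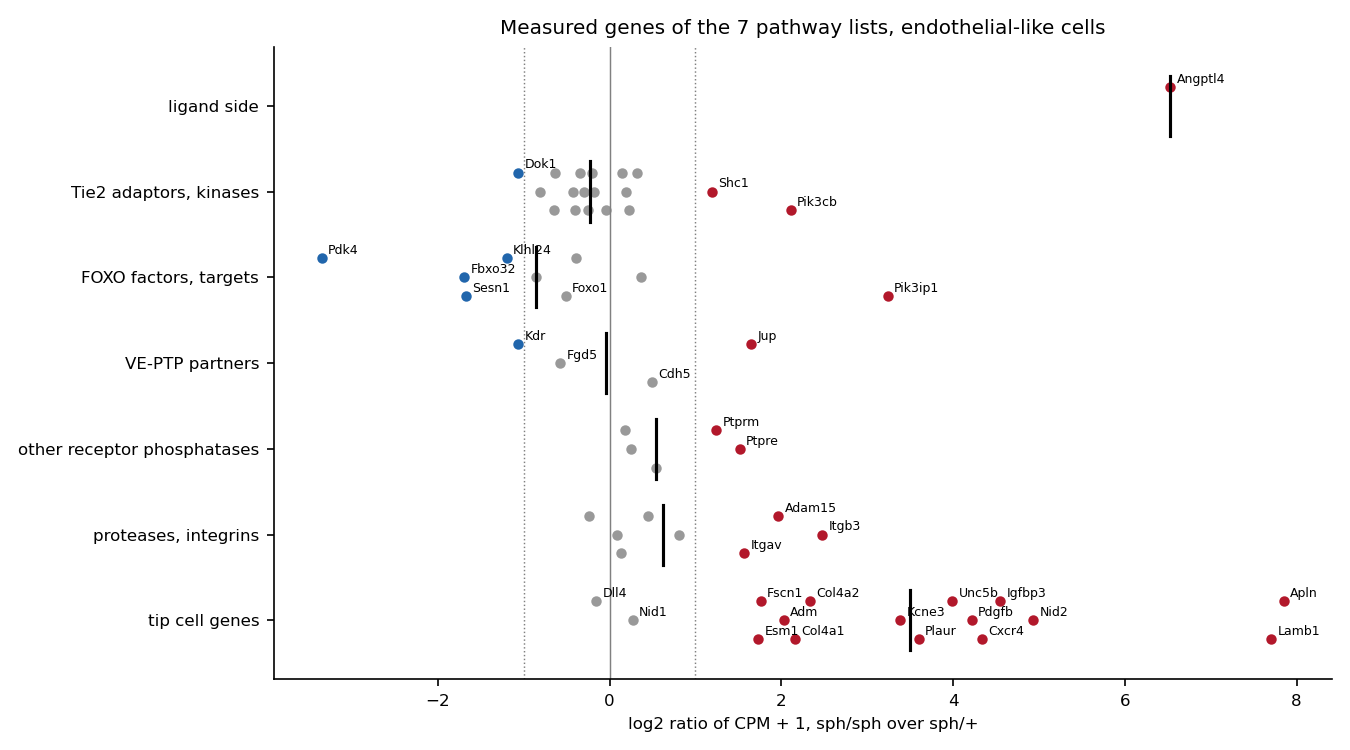
Log2 ratio of CPM + 1, sph/sph over sph/+, of the 61 measured genes of 7 lists, in endothelial-like cells. Red points are at least 2-fold higher in sph/sph, blue points at least 2-fold lower, grey points within 2-fold, black bars are list medians, and vertical position within a list has no meaning. Tip cell genes have the highest median of the lists with more than 1 gene, at 3.49, and FOXO factors and targets the lowest, at -0.86.

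Genes whose levels followed each member most closely over subtypes were found by the lower of 2 Pearson r of log2(CPM + 10), 1 over the 11 sph/sph clusters and 1 over the 8 sph/+ clusters. For Tek these were Calml4 (0.87 in sph/sph, 0.99 in sph/+), Cd84, S100a1, Camk1 and Hyal2. For Ptprb they were Ids (0.90 in sph/sph, 0.90 in sph/+), Klf3, Camk1, C2cd2l and Sel1l, so that Camk1 was named for both. For Tie1 they were Tgfbr2 (0.84 in sph/sph, 0.86 in sph/+), which encodes a TGF-β receptor, Pold4, Ccm2l, Smpd2 and Dnajb2. For Angpt2 the closest genes were looser, with Wdr75 at 0.72 in sph/sph and 0.80 in sph/+, then Gng12, Grap, Ugcg and Rnf24. The clusters share 1 library in each r, and in sph/+ the cycling, Nrg1/Adgrg6 and Mcm5/Slfn9 clusters held 9, 9 and 1 Angpt2 UMIs.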

How the data were processed

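The deposited values are raw UMI counts per gene and barcode for 1 library per genotype. Per the submitters' processing notes the authors used Cell Ranger 3.0 with mm10, and per the file headers software version 3.1.0. The annotation release is not given in the sources used here. Barcodes with at least 500 genes, 1000 UMIs and at most 15% mitochondrially encoded UMIs were kept. The libraries shared 30 barcodes by sequence. Scrublet's automatic threshold marked 0% of cells, so the highest scores were removed at the expected rate of 0.8% per 1000 cells, which took 13.5% of 13094 sph/sph cells and 10.8% of 12304 sph/+ cells and left 11321 and 10980.

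Libraries were clustered together without integration (scanpy 1.11.5, leidenalg 0.10.2, python 3.11.15, 2000 variable genes without the 4 members, 30 components, 15 neighbours, resolution 1.0). A marker was detected if 25% of a cluster's cells had a UMI. Endothelial-like clusters needed 3 of 13 pan-endothelial markers and no other type leading their 10 top genes. Their classes were then tried in the order given here. Cycling clusters needed 3 cycling markers among the top genes. Lymphatic-like clusters needed 4 of 7 markers, with a lymphatic marker among the top genes and no fewer there than LSEC or continuous vascular markers. Central-vein-like clusters needed 6 of 7 markers and at most 9 LSEC markers. LSEC-like clusters needed 9 of 12 markers and continuous vascular-like 8 of 15, each with a larger share of its own list detected than of the other. These numbers, and the split of 1 mixed cluster into 5 at resolution 0.5, were set after the data were seen. One cluster of 14 sph/sph cells stayed unnamed.

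Counts were summed over cells and scaled to CPM. Intervals (95%) are exact Poisson for levels, Clopper-Pearson for shares and pooled binomial for ratios. They cover counting error only. The 2-fold call and the ratio interval were tested on simulated counts, and the other steps were not. Text names the 4 members, every listed ligand and in each list up to 5 measured genes with the largest absolute log2 ratio; 1 gene that this rule names is not reported here. The members and the gene lists were chosen with earlier results of these data known. Promoter sequences matched 2 of the 4 members by symbol in RefSeq on GRCm38.p6.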

Additional observations from a re-analysis of the deposited data

Results flagged for a closer look

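The log2 ratio of Angpt2, sph/sph over sph/+, was 0.92 in LSEC-like cells, 2.30 in cycling cells and -0.23 in central-vein-like cells. The difference among the classes was not tested. The central-vein-like value rests on 7 UMIs in sph/sph and 2 in sph/+, and its ratio of 0.822 (0.157 to 8.11) shows no direction.

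Angpt1 was abundant in cells outside the endothelial comparison. In 175 sph/+ cholangiocyte-marked cells it had 135 UMIs at 62.65 CPM (52.5 to 74.2), against 0.195 CPM in sph/+ endothelial-like cells. These cells had 12 of 13 pan-endothelial markers detected as well, and sph/sph had no such cluster to set beside them.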

How the results depend on the processing

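Of 110 alternative values, 47 moved and the other 63 did not. A level, share or ratio moved if it left the counting interval of the value reported, and a count of genes moved if it changed by more than 1.5 times. A change of direction was looked for only in the log2 ratios of Angpt2, Tek and Ptprb, where 0 changed. The log2 ratios, sph/sph over sph/+, ranged over 13 alternatives from 2.64 to 3.18 for Angpt2, -2.20 to -2.10 for Tek, -0.127 to -0.0533 for Tie1 and -3.16 to -2.92 for Ptprb. Adding 10 CPM in place of 1 gave 2.70 for Angpt2, -2.0954 for Tek and -3.117 for Ptprb. Using every deposited barcode gave 3.03 for Angpt2, -0.0558 for Tie1 and -3.0912 for Ptprb. Leaving out lymphatic-like cells gave 2.64 for Angpt2, -2.0989 for Tek and -2.92 for Ptprb, and leaving out cycling cells gave -3.1039 for Ptprb. Weighting cells equally gave 2.81 for Angpt2 and -3.01 for Ptprb. Clustering each library alone gave 3.06 for Angpt2. Thinning each cell to 2000 UMIs gave 2.8835 for Angpt2, -2.1439 for Tek and -3.0531 for Ptprb. Scaling by the median ratio of 3030 genes, a shift of -0.04 on the log2 scale, gave -2.1492 for Tek, -0.0655 for Tie1 and -3.0978 for Ptprb. A cap of 10% on mitochondrially encoded UMIs gave -3.16 for Ptprb. Keeping cells led by another type where 10 of 13 pan-endothelial markers were detected, an alternative chosen after seeing the data, gave -2.1474 for Tek, -0.0533 for Tie1 and -3.0889 for Ptprb.

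A floor of 5 CPM gave 1365 genes 2-fold higher and 1043 lower, and a floor of 50 CPM gave 516 higher and 558 lower, with 19 list genes higher and 3 lower. At a depth of 1000 UMIs the shares in sph/sph were 12.58% for Angpt2, 10.0% for Tek, 28.79% for Tie1 and 39.48% for Ptprb, and in sph/+ 2.146%, 38.21%, 30.71% and 98.27%. At the deposited depth they were 30.49%, 33.14%, 71.1% and 77.03% in sph/sph and 9.133%, 82.97%, 76.39% and 99.88% in sph/+. Without doublet removal the sph/sph Angpt2 share was 19.91%. At a clustering resolution of 0.5 the continuous vascular-like sph/sph class was at 184.7 CPM of Angpt2, 93.41 of Tek, 323.9 of Tie1 and 545.6 of Ptprb. The causes of these shifts were not tested.

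No paired analysis was possible because each genotype has 1 library, and none was left out in turn. Depth limits Angpt2 most in central-vein-like cells, where each library had under 10 UMIs, and in sph/+, where 915 of 10019 cells had any. No sph/+ cluster of at least 25 cells lacked endothelial markers.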
